A study of Mus musculus with 6 samples.

Results

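*Postn*, which encodes the matricellular protein periostin, was examined together with 9 genes known from the fibroblasts that lie directly under the gut epithelium: *Tnc*, *Pdgfra*, *Pdgfrb*, *Foxl1*, *Foxf1*, *Foxf2*, *Wnt5a*, *Bmp5* and *F3*. The 10 genes were taken by symbol from the 17778 genes of the expression table. All 10 were present, and all 10 were among the 13520 genes tested, which had a value of at least 0.5 in at least 3 mice. They were chosen by measured values of the comparison described here: it had called *Postn*, as 1 of 3 genes lower in OP mice (0.0222% of the genes tested), and the other 9 were listed with its results known. The call of *Postn* was lost in 13 of 14 other fits of the comparison, 6 of which left out 1 mouse, and was kept with sample weights. The differences between groups are therefore given for these genes as a description, without a p-value.

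Colon RNA was sequenced from 3 obesity-prone (OP) and 3 obesity-resistant (OR) mice, all wild-type male C57BL/6J mice that were 21 weeks old and had been fed a high-fat diet with 60% fat for 16 weeks. Both groups came from the same 42 mice and the same diet. The 10 mice with the largest weight gain were defined as OP and the 10 with the smallest as OR, and how 3 of each were taken for sequencing is not given in the sources used here. Strain, genotype and diet were shared, and weight gain defined the groups. Whether they also differed in cage, dissection or library preparation is not given in the sources used here. The labels number the samples, and each was taken as 1 mouse. They do not say so, and the spread between samples may be partly technical. The colon was sequenced as whole tissue, so fewer fibroblasts and less RNA per fibroblast cannot be told apart.

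Subepithelial fibroblasts form a sheath around the colonic crypts. Those with high PDGFRA at the crypt top, also called telocytes, express the transcription factor FOXL1, the ligands WNT5A and BMP5 and the cell surface protein F3, and BMP signals from them favour differentiation of the epithelium above. Fibroblasts deeper in the wall, with low PDGFRA, supply BMP antagonists and R-spondins to the stem cells at the crypt base. FOXF1, FOXF2 and FOXL1 are targets of hedgehog signals sent by the epithelium, and periostin and tenascin-C are secreted into the matrix by fibroblasts, mostly where tissue is remodelled.

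Expression is given in FPKM, in which fragments are divided by transcript length and by library size, which allows levels to be compared between genes. The values of a mouse summed to between 585350 and 600028, and the read depth behind them is unknown. The epithelial markers *Krt8* and *Epcam* had mean values of 3034 and 1063 over the 6 mice, so colon epithelium was plainly present. OP mouse 2 stood apart in several cell type markers. Of 5 adipocyte markers, 4 were listed at 0 in OP mouse 2 and above 0 in the other mice. All 6 macrophage markers, 5 of 6 blood endothelium markers and 5 of 6 general fibroblast and matrix genes had their lowest value there. OP mouse 1 had a median-of-ratios scaling factor of 0.803, where the others had 0.983 to 1.11. This scaling, which sets the median gene of each mouse to the same level, moved the median difference over all genes, OP minus OR on the log2 scale, from -0.10 to 0.01.

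*Postn* was lower in every OP mouse than in every OR mouse, by a similar step in each. The FPKM values of *Postn* were 35.1, 35.6 and 33.8 in OP mice 1, 2 and 3 and 68.2, 67.4 and 67.2 in OR mice 1, 2 and 3. On the FPKM scale no other member separated the groups in this way. Group means were 34.8 ± 0.942 (SD, n = 3) for OP and 67.6 ± 0.544 (SD, n = 3) for OR, so OR mice had 1.94 times the level of OP mice. The log2 fold change (OP minus OR, on the log2(FPKM + 1) scale used for all fold changes) was -0.94 with a standard error of 0.11. Of the 13520 genes tested, 176 had a lower log2 fold change than *Postn*.

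The narrow spread of *Postn* within each group depended on the scaling. The coefficient of variation was 2.71% in OP mice and 0.805% in OR mice, and only 9 of 9024 genes with a mean FPKM of at least 5 had a smaller spread within groups. After median-of-ratios scaling the OP mice had 43.7, 35.9 and 31.0, and the OR mice 61.7, 68.5 and 63.1. The groups still did not overlap, but 3520 of the 9024 genes then had a smaller spread, and the log2 fold change was -0.80 with a standard error of 0.16.

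*Tnc*, which encodes the other matricellular protein of the list, tenascin-C, had FPKM values of 10.3, 11.8 and 12.8 in OP mice 1, 2 and 3 and 19.0, 12.8 and 15.7 in OR mice 1, 2 and 3. OP mouse 3 and OR mouse 2 were nearly equal, at 12.80 and 12.75, so the groups just overlapped. For *Tnc*, OP minus OR came to -0.40 on the log2 scale with a standard error of 0.19. The ratio of *Postn* to *Tnc* within a mouse, which does not depend on scaling, was 2.64 to 3.40 in OP mice and 3.60 to 5.28 in OR mice. The lower level of *Postn* was thus proportionally larger than that of *Tnc* in these mice, with no overlap of the ratio.

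**Figure D1:**
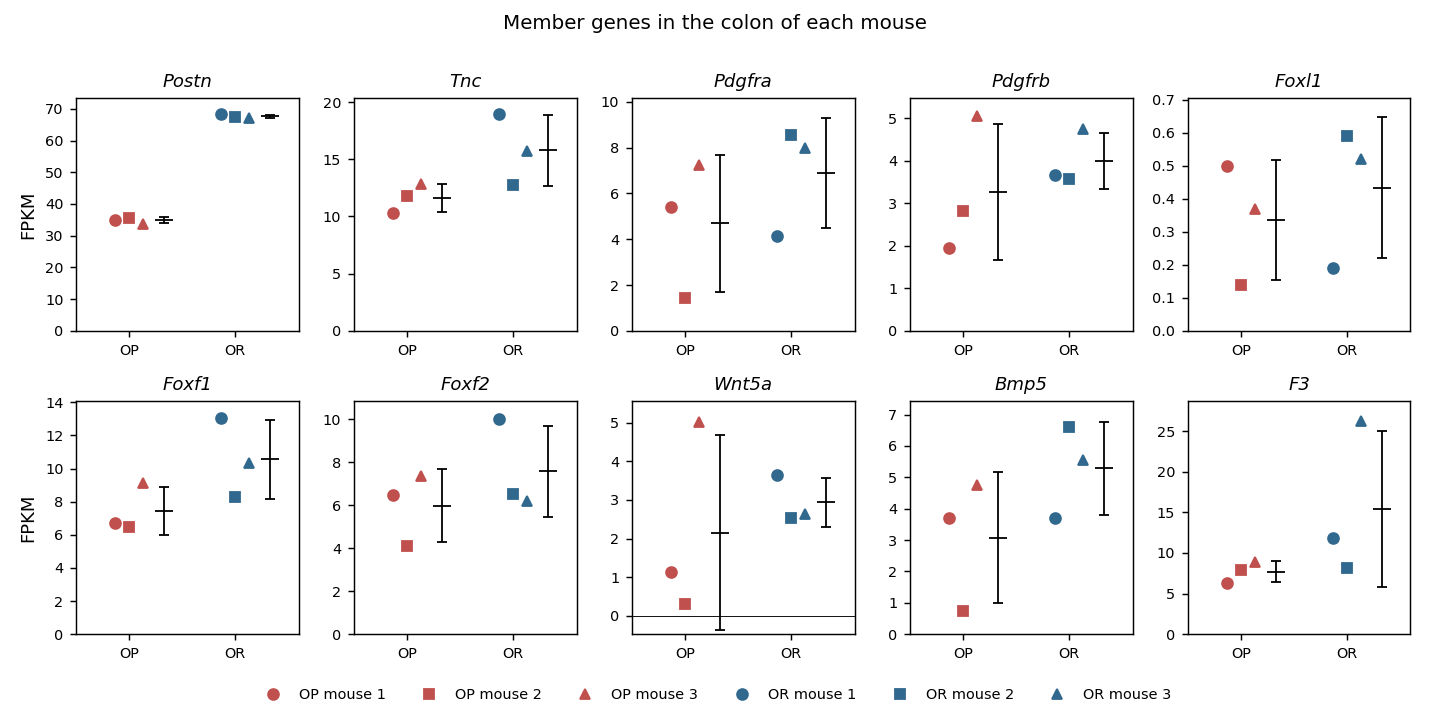
FPKM of the 10 genes in each mouse (y axis, 1 scale per panel), for OP mice (red) and OR mice (blue), with symbols for the mouse number and black bars for the mean and SD of 3 mice. *Postn* forms 2 tight, separate groups, whereas *Pdgfra*, *Wnt5a* and *Bmp5* are lowest in OP mouse 2 and overlap between groups.

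*Pdgfra*, the receptor that defines these fibroblasts, varied more between mice than between groups. It had 5.40, 1.42 and 7.26 FPKM in OP mice 1, 2 and 3 and 4.14, 8.55 and 7.98 in OR mice 1, 2 and 3. OP mouse 2 was far below the others, whereas OP mouse 3 lay above OR mouse 1. Its log2 fold change was -0.59 with a standard error of 0.48, and ranged from -0.95 without OP mouse 3 to -0.07 without OP mouse 2. *Postn* was as high in OP mouse 2 as in the other OP mice, so the ratio of *Postn* to *Pdgfra* was 25.0 in that mouse and 4.65 to 16.5 in the other mice. *Pdgfrb*, the related receptor found mainly on pericytes and other mural cells, had 1.95, 2.83 and 5.05 FPKM in the OP mice, against 3.67, 3.58 and 4.75 in the OR mice. OP mouse 3 was the highest of all 6. *Pdgfrb* had a log2 fold change of -0.28 with a standard error of 0.29, which ranged from -0.57 without OP mouse 3 to -0.05 without OP mouse 1 and was -0.18 without OR mouse 3 and after median-of-ratios scaling.

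*Bmp5* and *Wnt5a*, the ligands of the list, had their lowest value in the same mouse as *Pdgfra*. *Bmp5* had 3.70, 0.74 and 4.77 FPKM in OP mice 1, 2 and 3 and 3.69, 6.62 and 5.56 in OR mice 1, 2 and 3. OP mouse 1 and OR mouse 1 were almost equal. For *Bmp5*, the log2 fold change came to -0.77 with a standard error of 0.45, and -0.24 without OP mouse 2. *Wnt5a* had 1.14, 0.30 and 5.02 FPKM in the OP mice, which held both the lowest and the highest value of the 6, and 3.65, 2.52 and 2.63 in the OR mice. The highest value was 16.7 times the lowest, the widest range of the 10 genes. For *Wnt5a* the log2 fold change was -0.61 with a standard error of 0.51, and -0.12 without OP mouse 2 and -1.23 without OP mouse 3.

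The centred values of *Pdgfra* and *Bmp5* differed by a root mean square of 0.13 over the 6 mice on the log2(FPKM + 1) scale, which was the second smallest difference of any pair among the 10 genes. Only *Tnc* and *Foxf1* were closer, at 0.10. *Postn* and *Pdgfra* differed by 0.65. The 250 bases before the start site are shown for *Postn*, the gene that separated the groups, and for *Pdgfra* and *Bmp5*, the pair that varied together and apart from it, so that they can be compared. They are from RefSeq on GRCm38.p6, 5′ to 3′ on the strand of the gene, at chr3:54360857-54361106 (plus strand, the downstream of 2 start sites listed), chr5:75152001-75152250 (plus strand) and chr9:75775115-75775364 (plus strand). Capitals mark matches to TATAAA on the strand of the gene, to the forkhead motifs TGTTTAC and TATTTAC and to the AP-1 motifs TGACTCA and TGAGTCA, the last 2 kinds on both strands.
Postn: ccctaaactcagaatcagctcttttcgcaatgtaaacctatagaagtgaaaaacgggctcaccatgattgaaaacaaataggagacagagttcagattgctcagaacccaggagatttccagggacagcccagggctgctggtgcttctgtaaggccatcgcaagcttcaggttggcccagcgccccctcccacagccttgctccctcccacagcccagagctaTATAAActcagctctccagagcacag
Pdgfra: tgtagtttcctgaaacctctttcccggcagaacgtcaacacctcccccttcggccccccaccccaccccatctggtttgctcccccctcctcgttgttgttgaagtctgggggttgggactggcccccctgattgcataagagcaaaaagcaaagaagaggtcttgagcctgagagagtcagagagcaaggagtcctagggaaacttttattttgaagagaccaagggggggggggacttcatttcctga
Bmp5: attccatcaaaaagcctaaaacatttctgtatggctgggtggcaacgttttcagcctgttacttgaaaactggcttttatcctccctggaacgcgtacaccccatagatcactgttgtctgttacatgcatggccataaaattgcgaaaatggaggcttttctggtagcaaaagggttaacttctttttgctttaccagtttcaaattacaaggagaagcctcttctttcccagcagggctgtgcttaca
The window of *Postn* held TATAAA, starting 26 bases before the start site, and those of *Pdgfra* and *Bmp5* held none of these motifs. Member windows on a single chromosome were left out, and promoter windows were used for 6 of the 10 genes. The rest held no match at the upstream start site of *Postn*, a TATAAA match in *Tnc*, an AP-1 match (TGAGTCA) in *F3* and none in *Foxf2*, and no motif overlapped another. Of all 32851 windows of this length, 7.59% held TATAAA, 5.76% a forkhead motif and 4.46% an AP-1 motif. These matches describe the letters only.

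The forkhead genes had small differences between groups. *Foxf1*, which is needed for gut mesenchyme to form, had 6.69, 6.47 and 9.11 FPKM in OP mice 1, 2 and 3 and 13.1, 8.30 and 10.3 in OR mice 1, 2 and 3, and overlapped only through OP mouse 3 and OR mouse 2. Its log2 fold change was -0.45 with a standard error of 0.22, and -0.30 without OR mouse 1. *Foxf2*, its close relative, had 6.47, 4.08 and 7.37 FPKM in the OP mice, against 10.02, 6.51 and 6.19 in the OR mice. Here OR mice 2 and 3 lay within the range of the OP mice. *Foxf2* differed by -0.30 on the log2 scale with a standard error of 0.27, by -0.09 without OP mouse 2, by -0.11 without OR mouse 1 and by -0.18 after median-of-ratios scaling. *Foxl1*, the marker of telocytes, was near the lower limit of the filter, at 0.50, 0.14 and 0.37 FPKM in the OP mice, against 0.19, 0.59 and 0.52 in the OR mice. Its log2 fold change was -0.10 with a standard error of 0.19, at the median of all genes, and went from -0.23 without OR mouse 1 to 0.01 without OP mouse 2.

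*F3*, which encodes tissue factor, the cell surface starter of blood coagulation, had 6.25, 7.95 and 8.84 FPKM in OP mice 1, 2 and 3 and 11.8, 8.17 and 26.3 in OR mice 1, 2 and 3. OR mouse 3 was far above every other mouse, whereas OR mouse 2 lay within the OP range. OP minus OR for *F3* was -0.78 on the log2 scale with a standard error of 0.38, and -0.33 without OR mouse 3. *F3* is also expressed by epithelial cells.

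**Figure D2:**
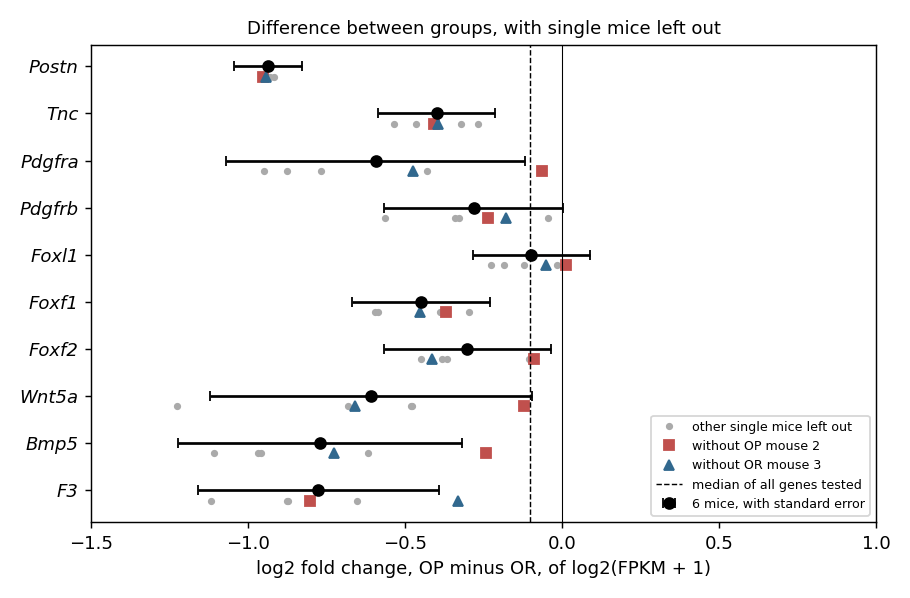
Log2 fold change (x axis, OP minus OR, of log2(FPKM + 1)) of the 10 genes, with the standard error over 6 mice (black) and the values with 1 mouse left out. *Postn* stays between -0.95 and -0.92, while *Pdgfra*, *Wnt5a*, *Bmp5* and *Foxf2* move towards 0 without OP mouse 2 and *F3* without OR mouse 3.

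Over the 10 genes, the mean was lower in OP mice in all 10, with a median log2 fold change of -0.52, where 70.1% of all genes tested were below 0 and their median was -0.10. Without *Postn*, the median of the other 9 was -0.45. Without OP mouse 2, the median of the 10 was -0.24. *Postn* alone had all OP mice below all OR mice, which 6.81% of all genes tested showed, and 0 had all OP mice above, as did 1.63% of all genes. After median-of-ratios scaling 4 of the 10 did (*Postn*, *Tnc*, *Foxf1* and *F3*), and 5.44% of all genes, against 3.83% with all OP mice above. Apart from *Postn* these separations were slight: the highest OP mouse and the lowest OR mouse were at 12.9 and 13.0 in *Tnc*, at 8.37 and 8.44 in *Foxf1* and at 8.12 and 8.31 in *F3*. Averaged over the 9 genes other than *Postn*, the departure from the 6-mouse mean (log2(FPKM + 1) scale) was -0.26, -0.67 and 0.22 in OP mice 1, 2 and 3 and 0.20, 0.14 and 0.37 in OR mice 1, 2 and 3. OP mouse 3 lay among the OR mice in this average, whereas in *Postn* it had the lowest value of all.

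The order of the levels was led by *Postn*, with a mean of 51.2 FPKM over the 6 mice, above 89.4% of the genes listed and above *Tnc* in each mouse with no overlap of the ranges. *Tnc* (mean 13.7), *F3* (11.6), *Foxf1* (8.99), *Foxf2* (6.77), *Pdgfra* (5.79), *Bmp5* (4.18), *Pdgfrb* (3.64), *Wnt5a* (2.54) and *Foxl1* (0.385) followed, and the range of each of these over the mice overlapped that of the next. Within mice, *Foxf1* was above *Foxf2*, *Pdgfra* above *Bmp5*, *Pdgfrb* above *Wnt5a* and *Wnt5a* above *Foxl1* in all 6 mice. *Tnc* was above *F3* in 5 of 6 mice. *Foxf2* was above *Pdgfra* in 4 of 6 and *Bmp5* above *Pdgfrb* in 4 of 6, and *F3* was above *Foxf1* in only 2 of 6.

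Among 9019 other genes with a mean FPKM of at least 5, those with the pattern most like *Postn* over the 6 mice were *Rhoj*, *Cavin2*, *Col3a1*, *Cd99* and *Sgce*. Their centred values differed from those of *Postn* by a root mean square of 0.13 to 0.16 on the log2(FPKM + 1) scale, against 0.32 for *Tnc*, the nearest of the 10 genes. *Col3a1*, a fibrillar collagen, had 17.9, 17.2 and 18.9 FPKM in the OP mice, against 32.6, 30.2 and 40.7 in the OR mice. *Rhoj*, a small GTPase known from endothelium, had 4.43 to 5.02 FPKM in OP mice and 7.92 to 8.96 in OR mice. This ranking used the same 6 mice and is a description.

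Relative to general fibroblast and matrix genes, *Postn* did not separate the groups. The log2(FPKM) of *Postn*, here without a pseudocount, minus the mean log2(FPKM) of *Col1a2*, *Col6a1*, *Col6a2*, *Dcn*, *Sparc* and *Vim* was 0.76, 1.13 and 0.29 in OP mice 1, 2 and 3 and 0.75, 0.78 and 0.32 in OR mice 1, 2 and 3. The group means of this difference were 0.728 ± 0.423 (SD, n = 3) for OP and 0.616 ± 0.255 (SD, n = 3) for OR, and the mice of both groups were interspersed. Within the OP group it was widest in OP mouse 2, where 5 of these 6 genes had their lowest value and *Postn* did not. The ratio of *Postn* to *Col6a1*, a collagen VI chain, was 2.23 ± 0.496 (SD, n = 3) among OP and 2.23 ± 0.119 (SD, n = 3) among OR mice. Against the epithelial *Epcam* the ratio was 0.0295 to 0.0361 in OP mice and 0.0601 to 0.0686 in OR mice.

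**Figure D3:**
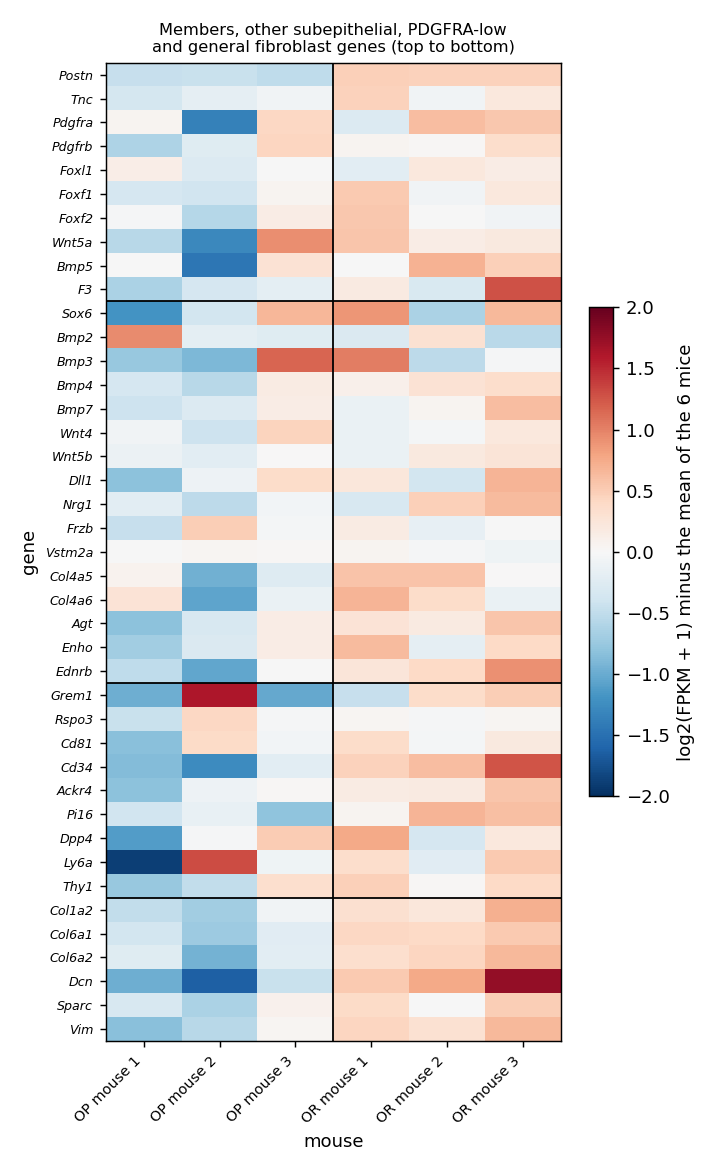
Deviation of log2(FPKM + 1) from the mean of the 6 mice (colour, blue lower and red higher) for the 10 genes, 16 other subepithelial fibroblast genes, 9 PDGFRA-low fibroblast genes and 6 general fibroblast genes (rows), by mouse (columns). OP mouse 2 is low in *Pdgfra*, *Wnt5a*, *Bmp5*, *Col4a5* and *Col4a6* and high in *Grem1* and *Ly6a*. Of the 16 other subepithelial genes, 8 are lowest there and 1 is highest. Of the 9 PDGFRA-low genes, 4 are highest there and 1 is lowest.

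The genes around these members were examined in 18 companion lists with 144 genes, of which 132 were tested. Limma-trend called 0 of the 132 at a q-value below 0.2, where it called 0.0222% of all genes as lower, and the smallest adjusted p among them was 0.582 (Benjamini-Hochberg adjustment). At an unadjusted p below 0.05, 35 of the 132 were lower in OP mice and 0 were higher, against 3.53% and 0.503% of all genes tested. Every OP mouse was below every OR mouse in 35 of the 132, against 6.81% of all genes tested. After median-of-ratios scaling this held for 29, against 5.44%. The reverse held for 1 of the 132 before and after scaling, against 1.63% and 3.83%. Of the 35 lower at an unadjusted p below 0.05, 18 were general fibroblast, blood endothelium and macrophage genes, which were all 18 genes of these lists.

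Of 16 other genes known from subepithelial PDGFRA-high fibroblasts, 14 were tested. Of these, 12 were lower and 2 higher in OP mice, 3 did so at an unadjusted p below 0.05, and their median difference was -0.51 on the log2 scale, next to -0.52 for the 10 members. Without OP mouse 1 these medians were -0.30 and -0.44. *Ednrb*, the endothelin receptor B, had 1.53, 0.74 and 2.56 FPKM in the OP mice, against 3.26, 3.74 and 5.74 in the OR mice, with a log2 fold change of -1.04 (standard error 0.31, adjusted p = 0.933 from limma-trend). *Agt*, which encodes angiotensinogen, had 2.95, 4.56 and 6.69 FPKM in the OP mice, against 7.39, 6.84 and 9.20 in the OR mice, with a log2 fold change of -0.66 (standard error 0.27, adjusted p = 0.945 from limma-trend). In both genes every OP mouse was below every OR mouse.

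All 9 genes of PDGFRA-low fibroblasts had log2 fold changes below 0, with a median of -0.44, and 2 had an unadjusted p below 0.05. Without OP mouse 1 this median was -0.01. The direction was not uniform in FPKM, where the OP mean was above the OR mean in *Grem1*, *Ly6a* and, by very little, *Rspo3*. *Cd34*, a sialomucin of deeper fibroblasts and of endothelium, had 2.76, 1.87 and 4.90 FPKM in the OP mice, against 8.47, 9.46 and 15.3 in the OR mice, a log2 fold change of -1.55 (standard error 0.33, adjusted p = 0.693 from limma-trend). *Pi16*, a marker of adventitial fibroblasts, was at 0.07 to 0.68 FPKM in OP mice and 0.94 to 1.99 in OR mice, and the chemokine scavenger *Ackr4* at 1.40 to 3.29 and 3.73 to 5.25.

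Of the PDGF ligands, *Pdgfa* was the highest and the 1 with higher values in OP mice. It had 29.8, 30.0 and 25.0 FPKM in the OP mice, against 24.6, 21.5 and 23.5 in the OR mice, so the groups did not overlap, with OP minus OR at 0.27 on the log2 scale (standard error 0.14, limma-trend adjusted p = 0.945). *Pdgfd* was at 0.69 to 1.48 FPKM in OP mice and 1.67 to 1.97 in OR mice, while *Pdgfb* and *Pdgfc* overlapped, with log2 fold changes of -0.36 and -0.53. None of the 4 had an unadjusted p below 0.05.

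The hedgehog ligands lie upstream of the FOX genes. *Ihh*, the ligand of the colonic epithelium, was level, with 57.1, 44.3 and 51.6 FPKM in the OP mice, against 49.8, 56.3 and 49.0 in the OR mice, a log2 fold change of -0.02 (standard error 0.14). *Shh* had -0.00. All 8 tested genes of this list had log2 fold changes below 0, with a median of -0.20 (-0.12 without OP mouse 1 and -0.44 without OP mouse 3), and 1 had an unadjusted p below 0.05. This was *Hhip*, a binding protein that restrains hedgehog ligands, with 0.13 to 0.55 FPKM in OP mice and 1.66 to 2.09 in OR mice, a log2 fold change of -1.19 (standard error 0.19, adjusted p = 0.582 from limma-trend). *Smo* (-0.51), the target genes *Gli1* (-0.51) and *Ptch1* (-0.19) and the factors *Gli2* (-0.01) and *Gli3* (-0.22) had adjusted p of 0.945 to 0.990 from limma-trend. *Gli1* and *Gli3* did not overlap between groups, *Gli1* only before median-of-ratios scaling.

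Among 13 relatives, receptors and partners of periostin and tenascin-C, 11 were tested, 9 were lower and 3 had an unadjusted p below 0.05, the median being -0.31 (-0.16 without OR mouse 1, -0.18 after median-of-ratios scaling and -0.15 with no filter). *Tnxb*, another tenascin, had 5.43, 5.11 and 6.07 FPKM in the OP mice, against 12.2, 8.42 and 9.09 in the OR mice, a log2 fold change of -0.72 (standard error 0.19, adjusted p = 0.805 from limma-trend). *Fn1*, fibronectin, which binds periostin, had 7.92 to 14.0 FPKM in OP mice and 14.1 to 23.9 in OR mice, which overlapped after median-of-ratios scaling. All 6 TGF-beta ligands and receptors, whose signal is a known inducer of *Postn*, were lower, with a median of -0.52, and 2 had an unadjusted p below 0.05. In *Tgfb3*, *Tgfbr1*, *Tgfbr2* and *Tgfbr3* the groups did not overlap. *Tgfbr3*, a co-receptor, had the largest difference of the 4 relative to its error, at -0.75 (standard error 0.22, adjusted p = 0.933 from limma-trend).

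On the receiving side of BMP5, the list was near the level of all genes. Of 16 BMP receptors, targets and antagonists, 15 were tested, 10 were lower and 5 higher, 0 had an unadjusted p below 0.05 in limma-trend, and the median was -0.09 (0.01 without OR mouse 1). The target genes *Id1* and *Id3* had log2 fold changes of 0.12 (standard error 0.21) and 0.11 (standard error 0.17). Of 9 WNT5A receptors and planar polarity genes, all 9 were below 0, with a median of -0.27 that ranged from -0.42 without OP mouse 2 to -0.09 without OP mouse 1. *Fzd4*, the 1 with an unadjusted p below 0.05, had 1.39 to 2.03 FPKM in OP mice and 2.26 to 3.20 in OR mice. Of 8 genes of the tissue factor pathway, 6 were tested, 4 were lower and 3 had an unadjusted p below 0.05, with a median of -0.61 (-0.35 without OP mouse 2, -0.96 without OP mouse 3 and -0.18 with no filter). *F2r*, the thrombin receptor, had 1.51 to 4.05 FPKM in OP mice and 4.65 to 7.07 in OR mice. *F7* and *F10*, the liver-made factors that F3 binds and activates, were below the filter, at 0.16 FPKM or less in each mouse.

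Markers of other cell types moved with the groups as well, and their part in the differences above was not tested. The 6 general fibroblast and matrix genes summed to 115.9 to 196 FPKM in OP mice and 284 to 432 in OR mice, their median difference being -0.90 on the log2 scale, and the 6 blood endothelium markers to 9.11 to 18.3 and 19.5 to 35.0, with a median of -0.83. The 6 macrophage markers summed to 25.3 to 64.2 FPKM in OP mice and 69.4 to 98.3 in OR mice, with a median of -0.91. In these 3 lists, all 18 genes had an unadjusted limma-trend p below 0.05 and 0 a q-value below 0.2. *Dcn*, a small matrix proteoglycan, had 17.4 to 40.8 FPKM in OP mice and 81.1 to 191 in OR mice, and *Col6a1*, *Col6a2* and *Vim* did not overlap either. The same held for *Cdh5*, *Eng*, *Pecam1* and *Emcn* among the endothelial and for *Mrc1*, *C1qb*, *Adgre1* and *C1qa* among the macrophage markers, of which *Emcn* and *C1qa* overlapped after median-of-ratios scaling.

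Of 9 pericyte genes, which bear on *Pdgfrb*, 8 were tested, all 8 were lower and 2 had an unadjusted p below 0.05, with a median of -0.44. *Rgs5* had 44.0 to 59.9 FPKM in OP mice and 65.3 to 98.5 in OR mice, and *Cspg4*, *Notch3* and *Mcam* did not overlap between groups either. After median-of-ratios scaling *Rgs5* and *Mcam* overlapped. The list summed to 75.9 to 90.1 FPKM in OP mice and 102 to 159 in OR mice, whereas *Pdgfrb* itself overlapped. The remaining cell type lists overlapped in their sums and had no gene with an unadjusted p below 0.05. The 6 epithelial markers, with *Krt8* and *Epcam*, had log2 fold changes above 0 and a median of 0.17 (0.04 without OP mouse 1 and 0.35 without OP mouse 3), and their sums were 4621 to 6966 FPKM in OP mice and 4897 to 6512 in OR mice. Medians were -0.25 for 6 smooth muscle markers (773.5 to 1290 and 921 to 1803 FPKM, led by *Actg2* and *Myh11*), -0.35 for 4 enteric glia markers (5.12 to 8.74 and 7.99 to 12.3), -0.28 for the 3 tested of 5 mesothelial markers (sums of all 5, 1.64 to 7.77 and 4.13 to 8.09) and -0.62 for 5 adipocyte markers (8.43 to 46.9 and 19.9 to 82.0). Leaving out 1 mouse took the smooth muscle median to 0.02 (without OR mouse 1), the mesothelial to 0.12 (without OP mouse 2) and the adipocyte to -0.04 (without OR mouse 1).

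**Figure D4:**
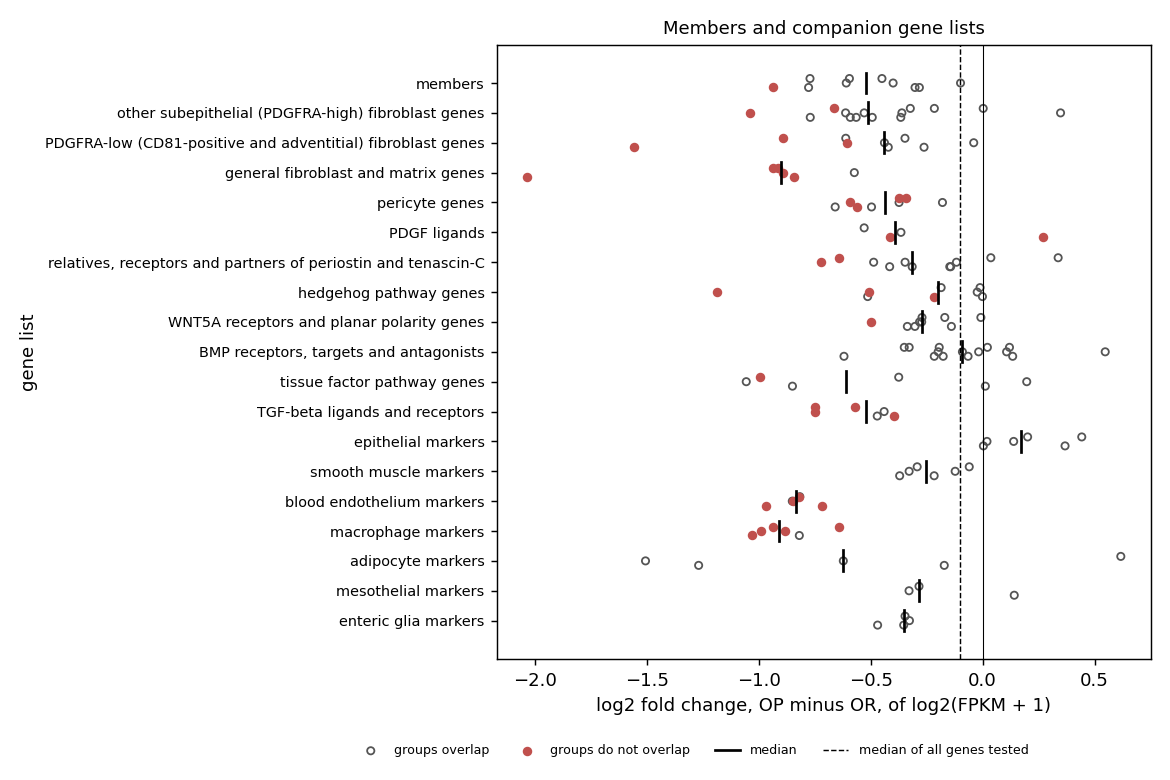
Log2 fold change (x axis, OP minus OR, of log2(FPKM + 1)) of each tested gene of the members and the companion lists (rows). Filled points have no overlap between the 3 OP and 3 OR mice, the dashed line is the median of all genes tested (-0.10), and black bars give the list medians, from -0.91 in macrophage markers to 0.17 in epithelial markers, with -0.52 in the members.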

How the data were processed

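Strand-specific mRNA libraries from the colon of 3 OP and 3 OR mice were read on a DNBSEQ machine. From reads cleaned by SOAPnuke and placed on a gene set by Bowtie2 (genome build GRCm39), the authors estimated expression with RSEM and deposited FPKM values to 2 decimals. The submitters' processing notes also name HISAT2 2.0.4. The methods and the labels differ in the versions and in the description of the gene set. FPKM carries no read totals, so depth and counting error are unknown.

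The filter required 0.5 FPKM or more in 3 or more mice. Limma-trend (limma 3.58.1 under R 4.3.3) then set OP against OR on log2(FPKM + 1) over all remaining genes, with no covariate, and p-values were adjusted after Benjamini-Hochberg. The study's tool, DESeq2, needs counts and was not run. Calls needed a q-value below 0.2 together with an OP to OR ratio no less than 1.2 or no more than 0.83. The step was tested on simulated data. Standard errors are those of limma.

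The members and lists were chosen with earlier results of these data known. Genes named besides the members are, per companion list, up to 4 genes without overlap with the lowest p, or else the 2 with the highest mean, all tested PDGF and hedgehog genes, and the 5 genes nearest to *Postn*. *Col4a5*, *Col4a6*, *Grem1*, *Ly6a*, *Rspo3* and the tissue factor genes at low level were named after their values had been seen. Settings tried were limma without trend, median-of-ratios and TPM scaling, a pseudocount of 0.1, no filter, at least 1 in all 6 mice, sample weights, a replicate block and each mouse left out. Promoter windows are from RefSeq on GRCm38.p6, and no coordinates of the expression data were used.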

Additional observations from a re-analysis of the deposited data

How the results depend on the processing

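With 3 mice a group and no counts, a difference of the size seen in *Pdgfrb* is no larger than its standard error, and low genes such as *Foxl1* are further compressed by the pseudocount. The median log2 fold change of the 10 genes was -0.52, between -0.73 and -0.24 when single mice were omitted and from -0.70 to -0.40 under the other settings. Single members were recomputed 137 times in all, and 136 of these values moved by less than the spread between mice. Most of them could not do otherwise, so this count does not measure stability. Fits without trend, with a replicate block or with another filter give the same difference by construction. Omitting 1 of 3 mice cannot shift it beyond that spread. *Pdgfra* went from -0.59 to -0.07 without OP mouse 2 and was counted among the 136. The exception was *Postn* after median-of-ratios scaling, which went from -0.94 to -0.80, where its own spread was only 0.03. Under this scaling *Tnc* went from -0.40 to -0.27, *Foxf1* from -0.45 to -0.32 and *F3* from -0.78 to -0.65, within their wider spreads. The recomputed member values were below 0 except that of *Foxl1* without OP replicate 2. Of 251 list medians, 239 moved by less than the spread of their list between mice. Those without trend or with a replicate block could not move. The PDGFRA-low median without OP replicate 1, at -0.01, was among the 12 that moved more.

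Over the 6 mice, 3 genes were called lower in OP mice (q-value under 0.2). This number was 5 with sample weights and 0 with median-of-ratios scaling, with TPM, with a pseudocount of 0.1, with no filter, with at least 1 in all 6 mice and with a q-value below 0.05. Without single mice it ranged from 0 to 1. The cause was not tested. It was 2 without trend, *Postn* not among them, and 3 without the fold change threshold. By unadjusted limma-trend p-values under 0.05, OP mice had 477 lower and 68 higher genes, with extremes of 231 and 24 (OR replicate 3 omitted) and of 1104 and 181 (OP replicate 3 omitted). The counts of genes higher in OP mice and of companion genes called were 0 under each setting, and the companion genes lower at an unadjusted p below 0.05 numbered 35, with the same omissions giving 22 and 43.

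A fit paired by number (replicate block) called 0 genes as lower, and the median of the 10 genes stayed at -0.52. Same-numbered mice are different samples whose deviations from the group means had correlations of -0.14, -0.16 and 0.07, so the numbers were not taken to pair them.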

Other observations

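In OP mouse 2, several subepithelial genes were low, whereas some genes of deeper fibroblasts were high and others low. These genes were singled out after their values had been seen, and the contrast rests on 1 mouse. The basement membrane chains *Col4a5* and *Col4a6*, known from the same cells as *Pdgfra*, had 0.53 and 0.26 FPKM in OP mouse 2, where the highest of the other mice had 3.45 and 3.20 and the lowest *Col4a6* value was 1.39. Of the 16 other subepithelial fibroblast genes, only 8 had their lowest value in OP mouse 2, and 1 had its highest there. *Grem1*, a BMP antagonist of the crypt base, had 15.7 FPKM in OP mouse 2 and 1.69 to 6.65 in the others, and *Rspo3*, which supports stem cells, 2.27 and 0.81 to 1.53. *Ly6a*, found on PDGFRA-low fibroblasts and other cells, was at 357 FPKM there and at 38.5 to 208 in the others. Of the 9 genes of PDGFRA-low fibroblasts only 4 were highest in that mouse, and *Cd34*, at 1.87, had its lowest value there. *Pdgfra* was 1.42 FPKM in that mouse and *Bmp5* 0.74, while *Postn* was 35.6, next to 35.1 and 33.8 in the other OP mice.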
